A study of Gallus gallus with 16 samples.

Results

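The livers of 4 broiler chickens fed diet F were compared with the livers of 4 fed diet A, gene by gene and bird by bird. These 8 arrays were chosen by the diet letter in the sample labels and are part of a series of 16, with 4 birds on each of the diets F, E, H and A. All birds were males sampled at day 21, and each array was taken as 1 bird, since the design text speaks of chickens collected per diet. The series title names saponins and a blend of essential oils from aromatic plants as feed additives. The labels give no letter a meaning, so the data do not show whether diet F or diet A held an additive, and diet A is only the group that diet F is set against. All features of the array entered the comparison, 20804 in all, and the 12300 with a single gene symbol gave 11528 genes.

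In chickens the liver, more than fat tissue, makes the fatty acids of the body, and it also makes cholesterol, bile acids, plasma proteins and uric acid. It takes up foreign compounds from the gut, plant compounds included, oxidises them with cytochrome P450 enzymes and couples them to sulfate, glucuronic acid or glutathione for export. These pathways are switched by nuclear receptors and by the feeding state of the bird, so their genes can differ between birds on the same feed. Gene roles are given as known from chickens or, for most genes, from mammals.

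The signals are on a log2 scale, where a difference of 1 is a 2-fold difference, and ran from 0.93 to 14.63 over the series. Albumin (ALB), the main protein of blood plasma, averaged 13.89 ± 0.07 in diet F and 13.91 ± 0.03 in diet A (SD, n = 4 each), near the top of that range. The liver genes TTR, APOA1, FGB, FBP1 and TAT averaged 12.41 or more in both diets. Array medians lay between 6.11 and 6.21. Pairs of livers correlated at 0.958 to 0.982 within diet F, at 0.976 to 0.982 within diet A and at 0.958 to 0.984 between the diets. Diet F replicates 3 and 4 stood apart from replicates 1 and 2: the first principal component of the series, with 43.1% of the variance, scored them 20.4 and 38.9, against -27.7 and -25.9 in diet F replicates 1 and 2 and -31.6 to -2.76 in diet A. These 2 arrays have title numbers above 25, as do diet A replicates 3 and 4, and the labels do not say what the numbers mean. Many list medians below moved when these 2 birds were left out, and those values are given beside them or with the account of single birds. The first component also scored diet H replicates 3 and 4 high, at 68.9 and 73.2, and diet E replicate 1, at 29.2.

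No feature differed between diet F and diet A after adjustment. limma's moderated test called 0 of 20804 features (0%) at an adjusted p under 0.05 (Benjamini-Hochberg over all features), and the smallest adjusted p was 0.993. At an unadjusted p under 0.05 there were 349 features (1.68%), 206 of them higher (0.99%) and 143 lower (0.687%) in diet F. The median standard error of a difference was 0.216, a 95% half-width of 0.458 before adjustment. At a typical feature the adjusted test needed a difference larger than that. In data simulated for this comparison over all 20804 features, true changes of 1.41-fold were found for 8% of 50 features, changes of 2-fold for 42%, of 4-fold for 84% and of 8-fold for 100%. These sizes were simulated together and with independent normal noise, so the rates need not hold for the real arrays. All genes below are therefore given as values, "higher" and "lower" state the sign of a difference, and each stands at an adjusted p of at least 0.993.

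Few genes kept the diets apart in every bird. Every diet F liver lay above every diet A liver at 245 features (1.18%) and below at 138 (0.663%). Among the named genes these counts were 133 of 11528 (1.15%) and 79 (0.685%). All 4 diet F livers lay above the diet A mean at 1233 genes (10.7%) and below it at 870 (7.55%). A difference of 2-fold or more was found at 4 genes higher (0.0347%) and 5 genes lower (0.0434%) in diet F.

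The 12 genes higher in diet F with the smallest p are given first. FAM20B (feature 15542491), the xylose kinase that acts on the linker of proteoglycan chains, read 7.65, 7.80, 8.01 and 7.78 in diet F livers, against 7.19, 7.51, 7.55 and 7.05 in diet A livers. All 4 diet F livers lay above all 4 diet A livers, and the means differed by 0.49 ± 0.14 (SE), or 1.4-fold. GLCE, the epimerase that finishes heparan sulfate chains, read 6.80, 6.87, 7.34 and 7.37 in diet F livers, against 6.81, 6.58, 6.68 and 6.34 in diet A livers. Here diet F replicate 1 lay within the diet A range and the other 3 above it, with a difference of 0.49 ± 0.17. FZD6, a receptor for Wnt proteins, had the largest difference of the 12, 0.77 ± 0.26, with 8.17, 6.72, 7.18 and 7.81 in diet F livers, against 6.59, 6.53, 6.78 and 6.88 in diet A livers. The diet F livers spread far wider than the diet A livers for FZD6, and diet F replicate 2 lay inside the diet A range. The growth factor gene EGF differed by 0.41 ± 0.14, LTBP1, which holds latent TGF-beta in the matrix, by 0.42 ± 0.15, and FSTL4, a follistatin-like protein, by 0.48 ± 0.17. For EGF 2 of the 8 birds lay under the dim level, set at 4.31, below which 20% of the signals fall. Its diet A mean of 4.25 lay under that level too, so EGF passed the dim rule only through diet F.

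Metabolic and signalling genes made up the rest of these 12. ECHDC2, an enoyl-CoA hydratase domain protein of mitochondria, read 9.10, 8.53, 8.86 and 8.97 in diet F livers, against 8.41, 8.09, 8.28 and 8.38 in diet A livers. TKTL1, a relative of the transketolase of the pentose phosphate pathway, read 9.18, 9.46, 9.13 and 8.99 in diet F livers, against 8.73, 8.68, 8.66 and 8.92 in diet A livers. CARD9, the adaptor that links fungal sensing receptors to NF-kappaB, read 6.39, 6.29, 6.40 and 6.59 in diet F livers, against 6.10, 5.91, 6.11 and 5.94 in diet A livers. In all 3 the diets did not overlap, and the differences were 0.58 ± 0.17, 0.44 ± 0.14 and 0.40 ± 0.14. UBAP1L, FAM53B and the kinase gene CDKL2 differed by 0.59 ± 0.18, 0.45 ± 0.16 and 0.43 ± 0.16. Another feature of UBAP1L differed by only 0.05 ± 0.23, and 5 of the 8 birds lay under the dim level for CDKL2. The CDKL2 means were 3.99 in diet A, under that level, and 4.42 in diet F, so it passed the dim rule only through diet F. The diets did not overlap at 8 of the 12 genes, a count that follows from choosing them by p and that includes EGF and CDKL2.

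The 12 genes lower in diet F with the smallest p follow. RIPK2, the kinase that carries signals of the NOD receptors, read 7.09, 7.40, 7.33 and 6.95 in diet F livers, against 7.82, 7.97, 7.44 and 7.56 in diet A livers. IL12B, a subunit shared by interleukins 12 and 23, read 4.53, 4.31, 4.06 and 4.62 in diet F livers, against 4.57, 5.20, 4.63 and 4.91 in diet A livers. The diets did not overlap for RIPK2, with a difference of -0.51 ± 0.19, and overlapped for IL12B only through diet F replicate 4, with a difference of -0.45 ± 0.17. NOX3, a catalytic subunit of the NADPH oxidases, differed by -0.49 ± 0.17.

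Larger differences in this direction belonged to TMCC3, TRIM2 and SPATA1. TMCC3 (feature 15399371), a membrane protein of the endoplasmic reticulum, read 6.64, 6.77, 6.39 and 5.88 in diet F livers, against 7.64, 7.36, 7.43 and 7.38 in diet A livers. Every diet F liver lay below every diet A liver, and the difference of -1.03 ± 0.32 was 2.04-fold. TRIM2, a ubiquitin ligase, read 6.33, 7.32, 6.11 and 5.80 in diet F livers, against 7.43, 8.60, 7.04 and 7.74 in diet A livers. Diet F replicate 2 lay within the diet A range and the other 3 below it, with a difference of -1.31 ± 0.47. SPATA1 read 4.90, 4.91, 4.88 and 4.47 in diet F livers, against 5.82, 5.16, 6.13 and 5.08 in diet A livers, and its diets did not overlap. DNAJC12, a chaperone partner of the aromatic amino acid hydroxylases, differed by -0.75 ± 0.29 with no overlap, and the lipid kinase gene PIK3C2G by -0.68 ± 0.20 with diet F replicate 2 in the diet A range. The smallest spread was that of SLC2A11L5, of the glucose transporter family, with 6.16, 6.16, 6.25 and 6.14 in diet F livers, against 6.44, 6.48, 6.47 and 6.58 in diet A livers. Its diets did not overlap, and the means differed by -0.32 ± 0.13 (SE). The SDs were 0.05 in diet F and 0.06 in diet A, but 0.11 in diet E and 0.19 in diet H. RAB40B, TMEM26 and IFT81, a cilium transport protein, differed by -0.56 ± 0.19, -0.45 ± 0.15 and -0.47 ± 0.18. Under the dim level lay 2 of the 8 birds for PIK3C2G and 1 each for IL12B, NOX3 and IFT81, all of them diet F birds.

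**Figure D1:**
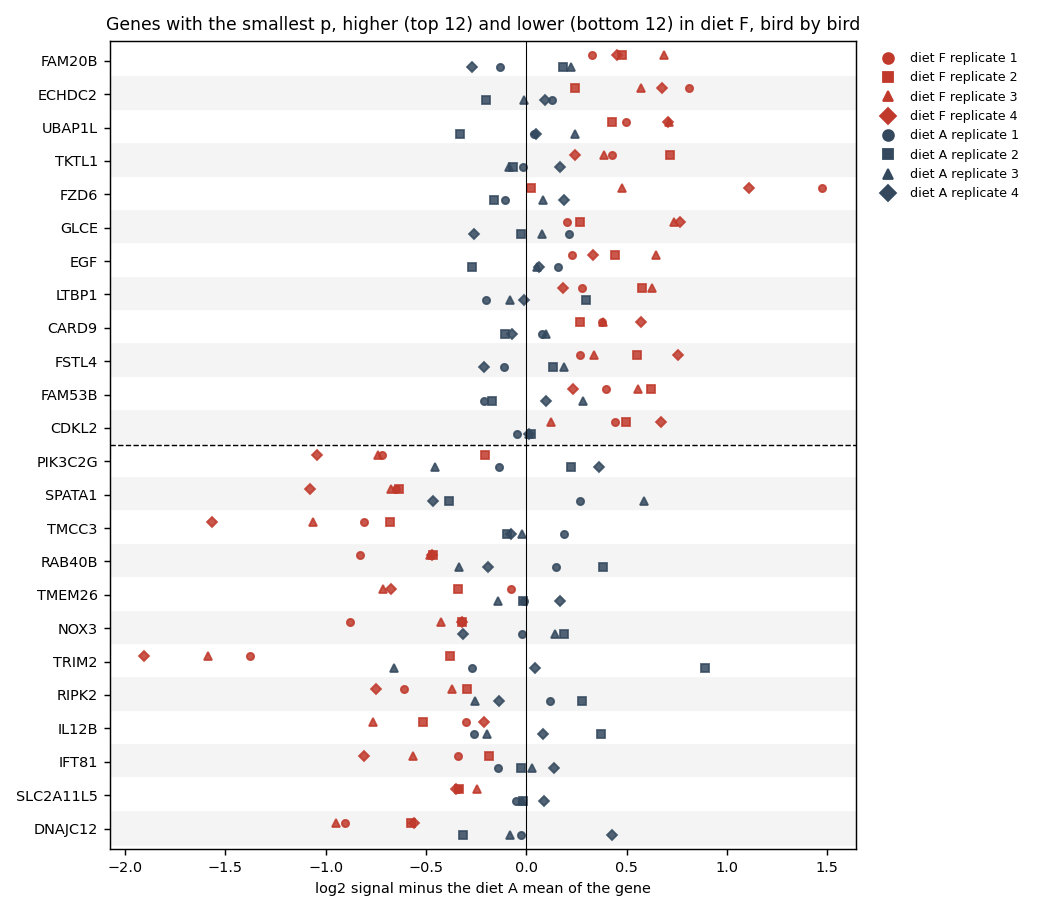
Log2 signal of each liver minus the diet A mean of the gene (x axis) for the 12 genes higher and the 12 lower in diet F with the smallest p (y axis). Each marker is 1 bird, red for diet F and dark blue for diet A, with a marker shape per replicate number, and the diets do not overlap at 8 genes above and 8 below the dashed line.

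The largest differences of means came from single birds in several cases. CYP2C45, a cytochrome P450 of the chicken liver, read 7.43, 11.36, 10.89 and 11.53 in diet F livers, against 12.02, 11.55, 11.36 and 13.34 in diet A livers. Diet F replicate 1 lay far below all others, and the difference of -1.77 ± 1.08 was -0.81 without that bird. ANGPTL4, an inhibitor of lipoprotein lipase, read 11.07, 10.06, 10.90 and 9.47 in diet F livers, against 8.93, 9.30, 11.15 and 7.63 in diet A livers. All 4 diet F livers lay inside the diet A range, whose lowest and highest birds were replicates 4 and 3. KCNJ4, an inward rectifier potassium channel, read 6.24, 4.79, 5.57 and 5.85 in diet F livers, against 4.61, 4.34, 4.87 and 4.26 in diet A livers, with only diet F replicate 2 in the diet A range and a difference of 1.09 ± 0.55.

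CIAO1, an assembly factor of cytosolic iron-sulfur proteins, read 8.96, 9.06, 9.26 and 9.50 in diet F livers, against 8.53, 9.02, 7.41 and 7.18 in diet A livers. The low values were diet A replicates 3 and 4, so the difference of 1.16 ± 0.47 was 0.23 between birds with title numbers up to 25 and 2.09 between birds with numbers above 25, and another feature of CIAO1 differed by 0.28 ± 0.21. CTSEAL, a cathepsin E relative, differed by -1.10 ± 0.68, with 2 diet F livers inside the diet A range. DDX60 and AMY2A, which complete the 8 genes with the largest differences, are given with the interferon genes and the pancreatic enzymes below.

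Genes were next grouped by function into 38 lists, with 11 more lists of cell type markers, which together held 1329 measured genes. Of these 0 passed the test, 9 were higher and 0 lower at an unadjusted p under 0.05, against 75 (0.651%) and 46 (0.399%) of all 11528 named genes. The diets did not overlap at 13 list genes above (0.978%) and 5 below (0.376%), which is no more than the 1.15% and 0.685% of all named genes. Of all named genes 52.7% were higher and 47.3% lower in diet F, their median difference was 0.01, and 31 lists had a median above 0 and 18 below. In no list did the 4 diet F medians lie all above or all below the 4 diet A medians.

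Lipid synthesis had the highest medians of the functional lists. The cholesterol synthesis median was 0.31, with 10 of 12 higher in diet F and 2 lower. Its members differed by -0.40 to 0.45, and the genes named here are all from the higher side. All 4 diet F livers lay above the diet A mean at 2 members and below it at 1. The list median was 0.18 without diet F replicate 1 and 0.19 without diet F replicate 3. The birds' own medians, relative to diet A, were 0.55, -0.02, 0.64 and 0.01 in diet F and -0.02, -0.06, 0.18 and -0.18 in diet A. Diet F replicates 1 and 3 lay above all diet A livers, and replicates 2 and 4 lay among them. CYP51A1 (feature 15457222), the lanosterol demethylase, read 12.51, 11.66, 12.42 and 11.99 in diet F livers, against 11.62, 11.49, 12.16 and 11.49 in diet A livers. SQLE, the squalene epoxidase, read 10.96, 9.60, 10.62 and 9.93 in diet F livers, against 9.80, 9.80, 10.16 and 9.75 in diet A livers. Both showed the same 2 high diet F birds, and their differences were 0.45 ± 0.20 and 0.40 ± 0.26. LSS, the enzyme that closes the sterol ring, HSD17B7 and NSDHL of the later steps, and ACAT2, at the start of the pathway, differed by 0.43 ± 0.30, 0.38 ± 0.24, 0.34 ± 0.24 and 0.29 ± 0.17.

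The genes that steer sterol levels stood closer to 0, with a list median of 0.08 and 10 of 15 higher. SREBF2, the transcription factor that switches on cholesterol synthesis, read 9.98, 9.60, 10.45 and 10.02 in diet F livers, against 9.41, 9.53, 9.89 and 9.27 in diet A livers. Diet F replicates 1, 3 and 4 lay above all diet A livers and replicate 2 within them, with a difference of 0.49 ± 0.25. SREBF1, its counterpart for fatty acid synthesis, differed by 0.36 ± 0.28. NPC1 and NPC2, which release cholesterol from lysosomes, differed by 0.28 ± 0.16 and 0.36 ± 0.24. INSIG1 and INSIG2, which hold the sterol sensors in the endoplasmic reticulum, differed by 0.07 ± 0.29 and -0.29 ± 0.28.

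The fatty acid and triglyceride synthesis median was 0.25, with 13 of 17 higher and 4 lower. The birds' medians were 0.55, 0.17, 0.29 and -0.25 in diet F and -0.01, -0.18, 0.44 and -0.27 in diet A. The 2 highest birds were diet F replicate 1 and diet A replicate 3, and the 2 lowest were diet F replicate 4 and diet A replicate 4. FASN (feature 15440866), the fatty acid synthase, read 13.42, 12.98, 13.14 and 12.53 in diet F livers, against 12.13, 12, 13 and 11.74 in diet A livers. All 4 diet F livers lay above the diet A mean and 2 above diet A replicate 3, the highest of its group, and the means of 13.02 ± 0.37 in diet F and 12.22 ± 0.55 in diet A (SD, n = 4 each) differed by 0.80 ± 0.36, or 1.74-fold. THRSP, a regulator of fatty acid synthesis that follows carbohydrate feeding, read 12.53, 12.18, 12.28 and 11.28 in diet F livers, against 11.88, 10.33, 12.37 and 10.90 in diet A livers. PLIN2, the coat protein of lipid droplets, and FADS2, the delta-6 desaturase, differed by 0.33 ± 0.23 and 0.26 ± 0.22, and AGPAT2, of triglyceride assembly, by 0.41 ± 0.35. For THRSP, PLIN2 and FADS2 the low diet F bird was replicate 4 and the high diet A bird replicate 3. Between birds with title numbers up to 25 the list median was 0.52, and between birds with numbers above 25 it was -0.13.

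Genes of fatty acid oxidation and ketogenesis were divided, with 11 of 22 higher and 11 lower. PDK4, the kinase that shuts pyruvate out of the citrate cycle, read 6.71, 6.82, 6.50 and 6.34 in diet F livers, against 7.26, 7.92, 6.25 and 7.28 in diet A livers. CPT1A, which admits fatty acids to mitochondria, read 9.36, 9.87, 8.89 and 9.51 in diet F livers, against 10.28, 9.85, 9.04 and 10.68 in diet A livers. In both, 3 diet A livers read high and diet A replicate 3 low, the bird that was high for FASN, and all 4 diet F livers lay below the diet A mean. The differences were -0.58 ± 0.31 for PDK4, -0.55 ± 0.40 for CPT1A, -0.45 ± 0.38 for PPARA, the receptor that drives fatty acid oxidation, and -0.34 ± 0.23 for the peroxisomal enzyme gene EHHADH. BDH1A, of ketone body metabolism, differed by 0.30 ± 0.16. ANGPTL4, described above, also belonged to this list and had its largest difference, 1.12 ± 0.85, in the higher direction.

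**Figure D2:**
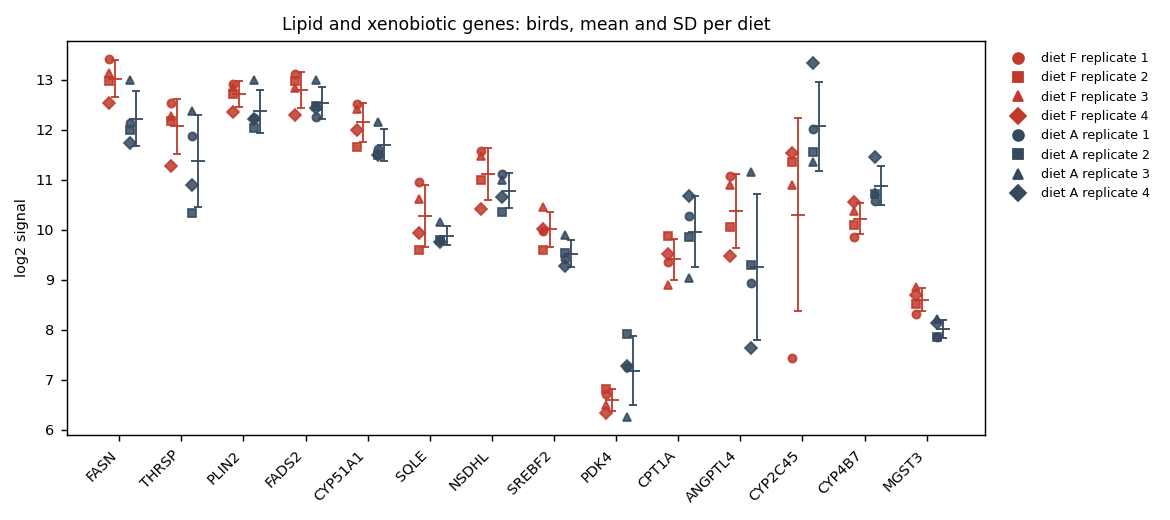
Log2 signal (y axis) of 14 genes of lipid synthesis, sterol control, fatty acid use and xenobiotic metabolism (x axis). Each marker is 1 bird, red for diet F on the left and dark blue for diet A on the right of each pair, with the mean and SD of 4 birds as bars, and diet F replicate 1 stands at 7.43 for CYP2C45.

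The lipoprotein median was 0.04, with 10 of 14 higher. APOA1, the main protein of high-density lipoprotein, read 13.52, 13.53, 13.53 and 13.60 in diet F livers, against 13.40, 13.40, 13.50 and 13.33 in diet A livers. The diets did not overlap for APOA1, although the difference was only 0.14 ± 0.13. APOA4, an apolipoprotein of gut and liver, read 10.73, 8.97, 9.80 and 9.39 in diet F livers, against 8.90, 8.76, 9.70 and 8.22 in diet A livers, with a difference of 0.83 ± 0.47, and diet F replicate 1 was the highest bird. APOB and MTTP, which build very low density lipoprotein, differed by -0.25 ± 0.27 and 0.001 ± 0.25, APOV1, a lipoprotein of laying hens, by 0.54 ± 0.43, and the lipase genes LPL and LIPG by -0.38 ± 0.28 and 0.30 ± 0.26.

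The glycolysis list median, though not each gene, lay on the same side in all diet F birds. Of its members 4 were lower in diet F, and the genes named here are all from the higher side. All 4 diet F livers lay above the diet A mean at 4 members and below it at 0. The list median was 0.15, or 0.08 without diet F replicates 3 and 4, 10 of 14 genes were higher, and the birds' medians were 0.07, 0.14, 0.20 and 0.22 in diet F and -0.09, -0.02, 0.10 and 0.0017 in diet A. All 4 diet F livers lay above the diet A mean, and diet F replicate 1 lay below diet A replicate 3. PFKL, the liver phosphofructokinase, read 8.51, 8.28, 8.98 and 8.86 in diet F livers, against 7.82, 8.25, 8.88 and 8.04 in diet A livers. GPI, the second enzyme of the pathway, read 11.67, 11.35, 11.39 and 11.37 in diet F livers, against 11.20, 11.12, 11.41 and 11 in diet A livers. The pyruvate kinase gene PKLR differed by 0.31 ± 0.26, PFKL by 0.41 ± 0.37, GPI by 0.26 ± 0.17, PGK2 by 0.21 ± 0.15 and TPI1 by 0.16 ± 0.17. Without diet F replicates 3 and 4 these differences were -0.02 for PKLR, 0.14 for PFKL, 0.33 for GPI, 0.29 for PGK2 and 0.03 for TPI1. For both PFKL and GPI diet A replicate 3 lay among the diet F birds.

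The gluconeogenesis and glycogen median was 0.09, with 9 of 14 higher. PCK1, the cytosolic enzyme that commits carbon to glucose, read 7.71, 5.42, 6.38 and 6.52 in diet F livers, against 5.79, 5.26, 7.95 and 5.38 in diet A livers. Diet F replicate 1 and diet A replicate 3 were high and the rest scattered, with a difference of 0.41 ± 0.79. PPP1R3B, which brings a phosphatase to glycogen, read 10.48, 10.33, 10.33 and 10.26 in diet F livers, against 9.36, 9.93, 10.65 and 9.60 in diet A livers. The diet F birds lay within an SD of 0.09, against 0.56 in diet A, and inside the diet A range. FBP1, G6PC, the glycogen phosphorylase gene PYGL and the glycogen synthase gene GYS2 differed by -0.0017 ± 0.11, 0.11 ± 0.32, 0.35 ± 0.28 and -0.32 ± 0.29.

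Genes that handle foreign compounds went in both directions. In the list of CYP2, CYP3 and CYP4 cytochromes, 8 of 17 genes were higher and 9 lower, with a median of -0.14. CYP4B7, of a family that oxidises fatty acids, read 9.86, 10.09, 10.37 and 10.56 in diet F livers, against 10.58, 10.72, 10.76 and 11.45 in diet A livers. Every diet F liver lay below every diet A liver, with a difference of -0.65 ± 0.32, or 1.57-fold. CYP4V2, which hydroxylates fatty acids, read 10.17, 10.10, 9.37 and 9.84 in diet F livers, against 10.58, 10.60, 10.13 and 10.31 in diet A livers, with diet F replicate 1 just above the lowest diet A bird and a difference of -0.54 ± 0.28. NR1I3, the xenobiotic receptor of this group, differed by 0.25 ± 0.28. CYP2AB3 was the list's other gene without overlap, above diet A, at signals under the dim level in all 8 birds.

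The aryl hydrocarbon receptor list had a median of 0.12, with 9 of 11 higher. The birds' medians were 0.02, 0.06, 0.19 and 0.43 in diet F, and the list median was 0.06 without diet F replicate 4 and 0.02 without replicates 3 and 4. CYP1A2, which this receptor induces, read 9.51, 9.28, 10.03 and 9.47 in diet F livers, against 9.33, 8.38, 9.27 and 9.28 in diet A livers. Diet F replicates 1, 3 and 4 lay above every diet A liver. AHR1A, a receptor gene itself, read 9.68, 9.78, 9.16 and 9.17 in diet F livers, against 10.08, 10.23, 9.66 and 9.86 in diet A livers, the opposite direction, with a difference of -0.51 ± 0.30 against 0.51 ± 0.34 for CYP1A2. CYP1A1, CYP1C1, AHR1B and the quinone reductase gene NQO1 differed by 0.24 ± 0.34, 0.21 ± 0.21, 0.17 ± 0.18 and 0.28 ± 0.31.

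Conjugation and export genes had medians of 0.09 for glutathione, with 10 of 18 higher, and 0.08 for sulfation, glucuronidation and export, with 16 of 29 higher. MGST3, a membrane-bound glutathione transferase, read 8.32, 8.53, 8.86 and 8.70 in diet F livers, against 7.85, 7.85, 8.21 and 8.14 in diet A livers. PAPSS2, which makes the activated sulfate for sulfation, read 8.21, 8.27, 8.65 and 8.50 in diet F livers, against 8.14, 7.83, 7.74 and 8.03 in diet A livers. Neither gene overlapped between the diets, and the differences were 0.59 ± 0.28 for MGST3 and 0.48 ± 0.22 for PAPSS2. MGST1, HPGDS and GCLC, the enzyme that limits glutathione synthesis, differed by -0.26 ± 0.16, -0.26 ± 0.13 and -0.35 ± 0.37, and GSR, which recycles glutathione, by 0.42 ± 0.27. The acetyltransferase gene NAT read 8.78, 8.14, 7.41 and 7.54 in diet F livers, against 8.58, 8.52, 8.68 and 8.55 in diet A livers. For NAT diet F replicates 2, 3 and 4 lay below all diet A livers, and diet F replicate 1 was the highest of all 8. ABCC2, the canalicular export pump, SULT1B1, TPMT and UGT8 differed by 0.28 ± 0.18, -0.21 ± 0.23, 0.28 ± 0.16 and -0.51 ± 0.30.

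Antioxidant genes had 8 of 20 higher and 12 lower. CAT, the peroxisomal catalase, read 11.63, 11.39, 11.04 and 11.19 in diet F livers, against 11.96, 11.70, 11.54 and 11.92 in diet A livers. Diet F replicate 1 lay inside the diet A range and the other 3 below it, with a difference of -0.47 ± 0.25. PRDX3, a mitochondrial peroxiredoxin, read 9.65, 9.96, 9.65 and 9.85 in diet F livers, against 9.61, 9.61, 9.62 and 9.51 in diet A livers, without overlap and with a difference of 0.19 ± 0.15. NFE2L2, the regulator of the antioxidant response, HMOX1, SOD1 and HMOX2 differed by -0.17 ± 0.15, 0.02 ± 0.14, -0.002 ± 0.18 and 0.31 ± 0.16.

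The bile acid median was 0.08, with 12 of 18 higher. NR0B2 (feature 15473846), the repressor that bile acids induce through the receptor FXR in mammals, read 8.09, 8.90, 9.10 and 9.07 in diet F livers, against 8.09, 7.75, 8.57 and 8.25 in diet A livers. Diet F replicate 1 was level with diet A replicate 1 and the other 3 lay above all diet A livers, with a difference of 0.63 ± 0.28, or 1.54-fold. CYP7A1, the rate-limiting enzyme of bile acid synthesis, which NR0B2 represses in mammals, read 11.37, 10.88, 10.31 and 10.49 in diet F livers, against 11.76, 10.04, 10.56 and 11.15 in diet A livers. Its diets overlapped widely and differed by -0.11 ± 0.38. SLC51A, a subunit of a bile acid exporter, and NR1H4, which encodes FXR, differed by 0.35 ± 0.20 and -0.39 ± 0.32. Among the hepatocyte transcription factors, 11 of 19 higher, KLF15 and HNF4A differed by 0.40 ± 0.22 and 0.28 ± 0.24.

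Secreted proteins of the liver lay close to diet A. The plasma protein median was -0.06, with 13 of 39 higher and 26 lower, and diet F replicate 3 was the lowest bird with a list median of -0.18. FGB, of fibrinogen, and TTR differed by -0.17 ± 0.19 and -0.03 ± 0.11, and the coagulation and complement genes F13B, PROS1, MASP2 and C5 by -0.40 ± 0.27, -0.36 ± 0.31, -0.33 ± 0.21 and -0.38 ± 0.37. Acute phase and inflammation genes had 15 of 24 higher and a median of 0.08. TNFAIP2, a gene induced by tumour necrosis factor, read 9.77, 9.36, 9.38 and 9.35 in diet F livers, against 8.76, 9.25, 9.04 and 9.29 in diet A livers. NFKBIA, the inhibitor of NF-kappaB, read 7.87, 8.15, 8.36 and 8.38 in diet F livers, against 7.72, 7.67, 7.80 and 7.90 in diet A livers. The diets did not overlap for TNFAIP2, and for NFKBIA 3 diet F livers lay above all diet A livers, with differences of 0.37 ± 0.20 and 0.42 ± 0.22. AVD, which encodes avidin, and the acute phase gene ORM1 differed by 0.48 ± 0.26 and 0.10 ± 0.21.

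Protein folding and secretion genes differed little. The chaperone gene HSPA5 of the endoplasmic reticulum read 12.82, 12.92, 12.92 and 12.78 in diet F livers, against 12.31, 12.86, 12.93 and 12.20 in diet A livers. Diet A split into 2 low and 2 high birds, and all diet F livers stood with the high ones, with a difference of 0.28 ± 0.20. XBP1, a transcription factor of the unfolded protein response, and ATF3 differed by -0.08 ± 0.22 and -0.49 ± 0.39. The list medians were 0.05 for folding in the endoplasmic reticulum (22 of 37 higher), 0.08 for the secretory pathway (36 of 55), 0.04 for cytosolic chaperones (20 of 33) and 0.10 for the proteasome (23 of 28). PSMC1, an ATPase of the proteasome cap, read 9.07, 9.02, 8.94 and 8.97 in diet F livers, against 8.85, 8.78, 8.86 and 8.68 in diet A livers, without overlap and with a difference of 0.21 ± 0.12. COPG1 and SEC13 of the vesicle coats, HSPA8, AHSA1 and PSMD2 differed by 0.34 ± 0.21, 0.26 ± 0.15, 0.23 ± 0.16, 0.29 ± 0.16 and 0.26 ± 0.16. Other genes of these lists were lower in diet F. MCFD2, a cargo receptor partner, differed by -0.48 ± 0.30, and SEL1L and PDIA4 of the endoplasmic reticulum by -0.37 ± 0.31 and -0.34 ± 0.29. The heat shock factor gene HSF3 differed by -0.24 ± 0.14 and PSMG2, a proteasome assembly chaperone, by -0.17 ± 0.13. Without diet F replicates 3 and 4 the differences were -0.035 for MCFD2, 0.029 for SEL1L and 0.077 for PDIA4. Those of HSF3 and PSMG2 were then -0.31 and -0.16. In the lysosome list, 21 of 46 higher, the protease genes CTSB and CTSC differed by 0.45 ± 0.19 and 0.22 ± 0.12 and the autophagy protease gene ATG4A by -0.37 ± 0.19, the last 2 of these without overlap between the diets.

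Short genes and long genes split the diet F livers. For each array, a gene's deviation was first taken from its mean over all other arrays of the series, those of diets E and H included. Across the genes with a known genomic span from start to end, this deviation went with span at a Spearman's rho of -0.179 and -0.318 in diet F replicates 3 and 4. It was 0.276 and 0.331 in replicates 1 and 2 and 0.067 to 0.287 in diet A. These rho run across the genes of 1 array, which are not independent replicates. In the shortest of 10 equal groups of genes the median deviation from the diet A mean was -0.05, -0.05, 0.19 and 0.30 in diet F replicates 1 to 4, against -0.06 to 0.09 in diet A. For the difference of the means rho was -0.243. The trend was not particular to diet F, with a rho of -0.354 and -0.363 in diet H replicates 3 and 4 and -0.278 in diet E replicate 1. Whether RNA quality or another property of diet F replicates 3 and 4 differed was not tested.

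**Figure D3:**
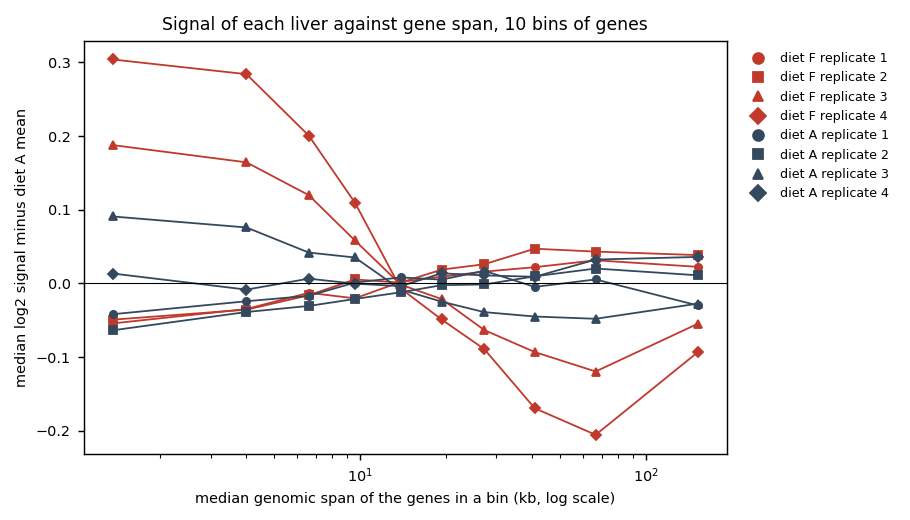
Median log2 signal minus the diet A mean (y axis) against the median genomic span of the genes (x axis, kilobases on a log scale) in 10 equal groups of genes. Each line is 1 liver, red for diet F and dark blue for diet A, and diet F replicates 3 and 4 start at 0.19 and 0.30 and end below 0.

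Some lists of short genes were high in these 2 birds and others were not. Cytosolic ribosomal protein genes had 46 of 52 higher and a median of 0.11. The birds' medians were -0.06, -0.0031, 0.18 and 0.35 in diet F and 0.06, 0.0012, 0.05 and -0.08 in diet A. Genes of the respiratory chain and ATP synthase had 42 of 54 higher, a median of 0.10, and birds' medians of -0.01, -0.09, 0.25 and 0.33 in diet F and -0.0063, -0.08, 0.07 and 0.00039 in diet A. In both lists diet F replicates 3 and 4 lay above all diet A livers and replicates 1 and 2 did not. Without these 2 birds the medians were -0.02 and -0.06, and with the span trend taken out of each array they were 0.03 each. Proteasome genes, also short, had birds' medians of 0.06, 0.02, 0.15 and 0.05 in diet F, and splicing factors 0.0026, 0.08, -0.04 and -0.24, lowest in the same 2 birds. RPL38 and RPL4 of the large ribosomal subunit differed by 0.30 ± 0.20 and 0.20 ± 0.17, RPS6 of the small one by 0.10 ± 0.14, the ATP synthase gene ATP5B by 0.31 ± 0.19 and NDUFS1 and COX4I1 of the respiratory chain by 0.06 ± 0.16 and 0.08 ± 0.16. Mitochondrial ribosomal proteins had 36 of 58 higher and a median of 0.07, which was 0.00015 without diet F replicates 3 and 4, and MRPL1 and MRPS36, without overlap between the diets, differed by 0.20 ± 0.14 and 0.16 ± 0.14. Splicing factors had 23 of 58 higher, and SRSF5 lay below diet A in every diet F liver with a difference of -0.34 ± 0.19. Translation factors and tRNA synthetases had 24 of 50 higher, with EEF1A1 at 0.0032 ± 0.11 and AARS1 at 0.42 ± 0.26.

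Immediate early genes, which are switched on within minutes of a signal, had 19 of 26 higher, 7 lower and a median of 0.20. Members differed by -0.60 to 0.60, and the genes named here are all from the higher side. All 4 diet F livers lay above the diet A mean at 6 members and below it at 2. The birds' medians were -0.10, 0.09, 0.23 and 0.33 in diet F and -0.10, -0.0051, 0.09 and -0.07 in diet A. DUSP1, a phosphatase that shuts down MAP kinases, read 7.15, 7.51, 7.91 and 8.16 in diet F livers, against 7.20, 6.98, 7.30 and 7.02 in diet A livers. Diet F replicate 1 lay inside the diet A range and the other 3 above it, with a difference of 0.55 ± 0.22, which was 0.199 without diet F replicates 3 and 4. TRIB1, a pseudokinase that steers protein breakdown, CYR61, a matrix signalling protein, and the transcription factor genes FOS, JUN and EGR1 differed by 0.41 ± 0.18, 0.60 ± 0.31, 0.40 ± 0.23, 0.45 ± 0.28 and 0.51 ± 0.45. Without diet F replicates 3 and 4 the list median was 0.02. The EGR1 difference was -0.32 between birds with title numbers up to 25 and 1.34 between birds with numbers above 25.

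Circadian clock genes had 2 of 13 higher and 11 lower, with the lowest median of all lists, -0.23. The birds' medians were -0.01, 0.02, -0.21 and -0.55 in diet F and 0.10, -0.06, -0.11 and 0.01 in diet A. PER2, a repressor of the clock that also answers to feeding, read 7.21, 7.50, 7.22 and 6.91 in diet F livers, against 8.23, 7.26, 7.39 and 8.02 in diet A livers. NFIL3, a repressor in the output of the clock, read 9.67, 9.21, 8.84 and 8.23 in diet F livers, against 9.47, 10.90, 9.49 and 8.87 in diet A livers. Diet A was spread widely for both, with replicates 1 and 4 high for PER2 and replicate 2 high for NFIL3, and the differences were -0.52 ± 0.46 and -0.69 ± 0.48. CSNK1D, the kinase that marks PER proteins, lay below diet A in every diet F liver with a difference of -0.23 ± 0.20, CRY1 differed by -0.29 ± 0.26, and ARNTL, an activator of the clock, by -0.10 ± 0.19. The list median was -0.01 without diet F replicates 3 and 4.

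Growth and nitrogen metabolism showed single genes rather than lists. Growth hormone and IGF axis genes had 9 of 21 higher. IGF1, the growth factor that the liver releases under growth hormone, read 10.62, 10.18, 9.17 and 8.80 in diet F livers, against 10.61, 10.12, 9.58 and 10.61 in diet A livers. The low birds were diet F replicates 3 and 4, and the difference of -0.54 ± 0.47 was 0.169 without these 2 birds. SOCS2, which growth hormone induces, read 8.05, 7.31, 7.85 and 7.49 in diet F livers, against 8.43, 8.11, 7.43 and 8.99 in diet A livers, with a difference of -0.56 ± 0.28, and IGFBP1 differed by 0.20 ± 0.29. Amino acid breakdown had 18 of 41 higher, and AADAT of lysine and tryptophan breakdown read 7.43, 7.84, 7.64 and 8.13 in diet F livers, against 8.46, 8.04, 8.19 and 8.12 in diet A livers, with 3 diet F livers below all diet A livers. TAT and HPD, of tyrosine breakdown, differed by -0.13 ± 0.16 and 0.09 ± 0.20. Purine synthesis and uric acid genes had 8 of 22 higher, and the glutamine synthetase gene GLUL, which binds ammonia, read 11.66, 11.29, 11.70 and 11.15 in diet F livers, against 11.30, 10.65, 11.13 and 11.02 in diet A livers, with a difference of 0.42 ± 0.20. PPAT, the first enzyme of purine synthesis, and XDH, which makes uric acid, differed by -0.35 ± 0.27 and -0.24 ± 0.33. One-carbon genes had 11 of 25 higher, with MAT1A at -0.29 ± 0.28. Nutrient transporters had 21 of 45 higher and 24 lower, with a median of -0.004 and members from -0.57 to 0.47. The genes named here are all from the lower side. They are the amino acid transporter genes SLC38A2, SLC7A7 and SLC38A4, at -0.57 ± 0.31, -0.54 ± 0.34 and -0.32 ± 0.21. Mitochondrial solute carriers had 13 of 32 higher, with the citrate carrier gene SLC25A1 at 0.23 ± 0.25.

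Cell division genes and interferon genes were spread widely within each diet. Cell division genes had 23 of 77 higher and 54 lower, with a median of -0.14, and birds' medians of -0.69, 0.40, 0.09 and -0.25 in diet F and 0.17, -0.45, -0.42 and 0.74 in diet A. The sign of the list median turned when 1 bird was left out, with 0.12 without diet F replicate 1 and 0.11 without diet A replicate 4, and it was 0.05 between birds with title numbers up to 25. CDK1, the kinase that starts mitosis, read 5.68, 9.12, 8.46 and 7.45 in diet F livers, against 8.33, 6.70, 7.04 and 9.21 in diet A livers. High and low birds occurred in both diets, and TOP2A and MCM2 differed by 0.01 ± 0.67 and -0.08 ± 0.41. POLE, a DNA polymerase subunit, was the list's 1 gene without overlap, at 0.23 ± 0.17. Interferon-induced genes had 15 of 33 higher. DDX60, an antiviral helicase, read 10.07, 10.08, 8.10 and 7.01 in diet F livers, against 11.14, 9.95, 8.93 and 9.70 in diet A livers. IFIT5, another antiviral protein, read 9.90, 9.79, 8.73 and 8.04 in diet F livers, against 11.09, 9.38, 8.87 and 10.57 in diet A livers. The low birds were diet F replicates 3 and 4, and without them the DDX60 difference of -1.12 ± 0.89 was 0.145. MX1 and GBP4L differed by -0.45 ± 0.81 and 0.56 ± 0.29. Antigen presentation genes had 10 of 11 higher with a median of 0.11, and the birds' medians were -0.07, -0.05, 0.09 and 0.40 in diet F, where replicate 4 stood highest, and 0.04, -0.01, -0.10 and 0.07 in diet A. The list median was 0.01 without diet F replicate 4 and -0.04 without replicates 3 and 4. B2M and CD74 of this list differed by 0.06 ± 0.16 and 0.10 ± 0.18, and CIITA, the activator of the class II genes, by -0.24 ± 0.31. Pattern recognition genes had 13 of 32 higher, with TLR4, the endotoxin receptor, at 0.03 ± 0.16.

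Markers of other cells and tissues were read in the same way. In whole liver RNA, more cells of a type and more RNA per cell cannot be told apart. Pancreas markers had the highest median of all lists, 0.40, with 11 of 13 higher. The birds' medians were 0.17, -0.09, 0.22 and 1.14 in diet F and -0.09, 0.04, 0.13 and -0.01 in diet A. The mean signal of the list was 5.33 to 6.64 in diet F, highest in replicate 4, and 5.28 to 5.52 in diet A. AMY2A (feature 15541560), a pancreatic amylase, read 6.56, 5.35, 6.39 and 8.89 in diet F livers, against 5.49, 6.07, 5.61 and 5.42 in diet A livers. CPB1, a pancreatic carboxypeptidase, read 4.34, 3.98, 5.06 and 6.92 in diet F livers, against 4.11, 4.03, 4.52 and 4.00 in diet A livers. Diet F replicate 4 was the highest bird for both, and also for CTRC, CELA1 and CELA2A, of the pancreatic proteases. Without that bird the list median was 0.11, without replicates 3 and 4 it was 0.05, and the AMY2A difference of 1.15 ± 0.64 was 0.45. No list member was at 0, since array signals have no true 0, and the means of 2 of the 13 lay under the dim level in both diets. CPB1 is not among these 2, but diet F replicate 2 and diet A replicates 1, 2 and 4 read under that level of 4.31 for it. Its diet A mean lay under the level too, so CPB1 passed the dim rule only through diet F. Whether pancreas tissue came with the liver sample was not tested.

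Globin and collagen genes were high in diet F replicates 3 and 4. HBAD, an alpha-type globin of red cells, read 8.76, 9.45, 10.66 and 10.65 in diet F livers, against 9.30, 9.37, 8.98 and 8.998 in diet A livers. HBA1, the other alpha globin, read 7.62, 8.61, 9.35 and 9.61 in diet F livers, against 8.40, 8.42, 7.97 and 7.90 in diet A livers. Diet F replicates 3 and 4 lay above all diet A livers for both and replicate 1 below them all, so that the differences of 0.72 ± 0.48 and 0.62 ± 0.44 were -0.055 and -0.061 without replicates 3 and 4. The erythroid list had 11 of 16 higher, a median of 0.09 and mean signals of 6.01 to 6.67 in diet F and 6.11 to 6.30 in diet A, and its median was -0.06 without replicates 3 and 4. Its other genes went both ways, with TAL1, a transcription factor of red cell precursors, at 0.49 ± 0.26, GFI1B at 0.23 ± 0.17, RHCE, a blood group protein, at -0.46 ± 0.24 and the carbonic anhydrase gene CA2 at -0.14 ± 0.16. The RHCE difference was -0.63 without replicates 3 and 4. COL1A1, the main collagen gene of matrix-forming cells, read 9.11, 9.73, 10.14 and 10.61 in diet F livers, against 9.50, 9.42, 9.03 and 9.76 in diet A livers. Its list of stellate cell and fibroblast markers had 24 of 33 higher, a median of 0.12, and mean signals of 7.16 to 7.58 in diet F and 7.12 to 7.40 in diet A. COL1A2 and VIM differed by 0.49 ± 0.31 and 0.28 ± 0.15. Without diet F replicates 3 and 4 the list median was 0.0025 and the COL1A1 difference of 0.47 was -0.0046, and between birds with title numbers up to 25 the list median was -0.06.

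Immune cell markers were spread unevenly over the birds. T and NK cell markers had 19 of 25 higher, a median of 0.16, and mean signals of 5.94 to 6.43 in diet F and 5.97 to 6.13 in diet A. CD8A, of cytotoxic T cells, read 5.82, 6.25, 7.30 and 6.34 in diet F livers, against 5.90, 6.13, 6.06 and 5.86 in diet A livers. The high bird was diet F replicate 3, which was also the highest for CD3D, CD3E and EOMES. The list median was 0.08 without that bird and -0.0082 without diet F replicates 3 and 4. IL7R, the interleukin 7 receptor of lymphocytes, read 6.22, 7.26, 6.38 and 6.35 in diet F livers, against 7.37, 7.44, 6.39 and 7.29 in diet A livers, the opposite direction, with a difference of -0.57 ± 0.31, while the kinase gene LCK differed by 0.36 ± 0.23. GZMA, a granzyme of cytotoxic cells, read 5.82, 7.07, 5.78 and 5.80 in diet F livers, against 5.67, 5.29, 5.06 and 5.37 in diet A livers. Its diets did not overlap, and the difference of 0.77 ± 0.59 was 0.45 without diet F replicate 2, the highest bird. B and plasma cell markers had 7 of 13 higher and a median of 0.09, which was -0.05 without diet F replicates 3 and 4. Heterophil and thrombocyte markers had 10 of 12 higher, with birds' medians of -0.11, 0.06, 0.20 and 0.44 in diet F. Their median of 0.14 was -0.035 without replicates 3 and 4, and the MMP9 difference of 0.42 was 0.09. Macrophage and Kupffer cell markers had 7 of 15 higher and 8 lower, with a median of -0.05 and members from -0.80 to 0.21. MARCO, a scavenger receptor of Kupffer cells, was the highest member, at 0.21 ± 0.18. LYG2 (feature 15405588), a goose-type lysozyme in both of the last lists, read 11.42, 10.60, 10.91 and 11.16 in diet F livers, against 11.65, 11.93, 11.82 and 11.88 in diet A livers. Every diet F liver lay below every diet A liver for LYG2, with a difference of -0.80 ± 0.43, or 1.74-fold.

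Epithelial and remaining markers gave 1 further gene without overlap. Bile duct and epithelial markers had 20 of 30 higher and a median of 0.04. KRT24, a keratin, read 5.16, 5.03, 5.43 and 5.04 in diet F livers, against 4.75, 4.98, 4.89 and 4.39 in diet A livers. The difference was 0.41 ± 0.16, while EPCAM and SOX9, of bile duct cells, differed by -0.15 ± 0.28 and 0.07 ± 0.24 and ELF3 by 0.49 ± 0.25. Endothelial markers had 12 of 21 higher and 9 lower, with members from -0.44 to 0.49. PECAM1 was the lowest member, at -0.44 ± 0.37, and KDR stood at 0.04 ± 0.14. Without diet F replicates 3 and 4 the endothelial median of 0.04 was -0.06 and the PECAM1 difference was 0.04. Intestine markers had 17 of 27 higher, 10 lower and a median of 0.05, with 8 of the 27 under the dim level. CDHR5, a cadherin of the brush border, was the lowest member, at -0.69 ± 0.49. APOA4, given with the lipoproteins, was the highest, at 0.83. Muscle and adipose markers had 12 of 17 higher and a median of 0.12.

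**Figure D4:**
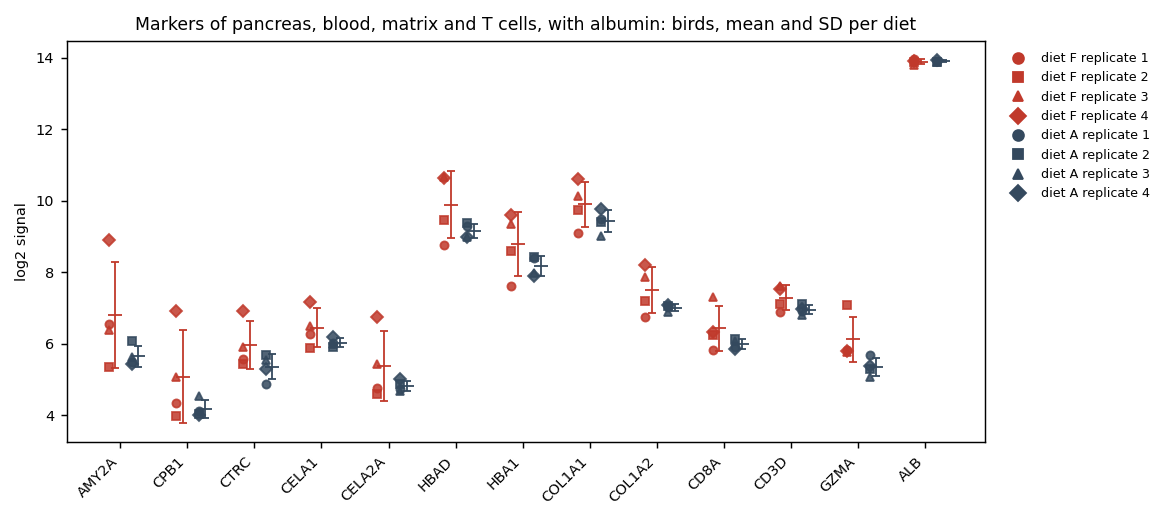
Log2 signal (y axis) of 12 marker genes of pancreas, red cells, matrix and T and NK cells, with albumin at the right (x axis). Each marker is 1 bird, red for diet F on the left and dark blue for diet A on the right of each pair, with the mean and SD of 4 birds as bars, and diet F replicate 4 is the highest bird for all 5 pancreas genes.

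Bird by bird, the lists did not divide the diets. All 4 diet F medians lay above the mean of the 4 diet A medians in 10 of the 49 lists, and below it in 0. Among the 10 were glycolysis, the proteasome, the secretory pathway and bile acids. That mean could lie below the zero line of the medians, and for bile acids diet F replicate 2 stood at -0.0032. Diet F replicates 3 and 4 lay above all 4 diet A livers in 22 and 25 lists, and diet F replicates 1 and 2 in 10 and 6. Below all diet A livers they lay in 9 and 5 lists, and replicates 1 and 2 in 8 and 6. A single diet A bird could stand out too, since diet A replicate 3 lay above the other 3 diet A livers in 21 lists, and diet A replicates 1, 2 and 4 in 9, 10 and 9. That mark is easier to pass, as a diet A bird was set against 3 livers and a diet F bird against 4. Among the 1329 list genes, all 4 diet F livers lay above the diet A mean at 157 (11.8%) and below it at 89 (6.7%), against 10.7% and 7.55% of all named genes.

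Further list medians moved without diet F replicates 3 and 4. They were then -0.01 for acute phase and inflammation genes, 0.05 for the proteasome, 0.03 for glutathione, 0.001 for plasma proteins, -0.05 for intestine markers and 0.02 for muscle and adipose markers. The medians for fatty acid and triglyceride synthesis, gluconeogenesis and glycogen, lipoproteins and cytosolic chaperones were larger without these birds, at 0.42, 0.15, 0.12 and 0.13. Single diet A birds mattered too. The median of glutathione genes was 0.009 without diet A replicate 2, that of sulfation, glucuronidation and export 0.0062 without diet A replicate 3, and that of acute phase and inflammation genes -0.01 without diet A replicate 1. The bile acid median was 0.04 without diet F replicate 4.

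**Figure D5:**
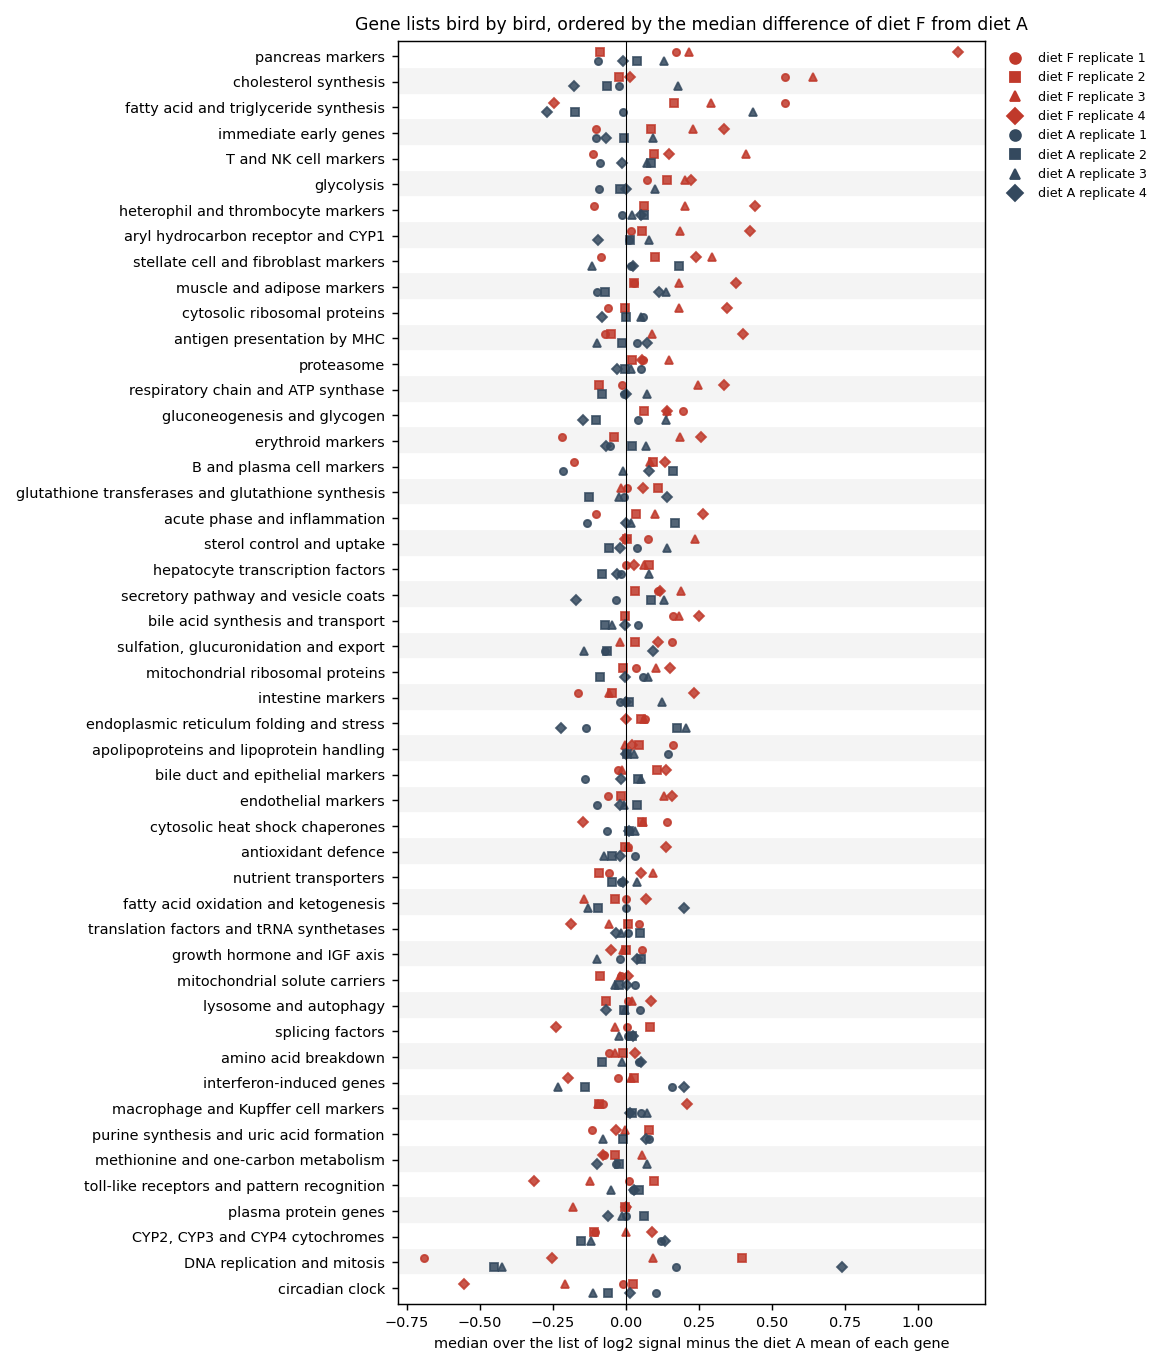
Median log2 signal minus the diet A mean over the genes of a list (x axis) for 49 lists (y axis), ordered by the median difference of diet F from diet A. Each marker is 1 bird, red for diet F and dark blue for diet A, with a marker shape per replicate number, and in no list do all diet F birds lie on 1 side of all diet A birds.

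The other diets were used to see whether the same genes set diet F apart from them too. limma called 0 of 20804 features between diets F and E and 0 between diets F and H, with 281 (1.35%) and 540 (2.6%) at an unadjusted p under 0.05 and smallest adjusted p of 1 and 0.971. These comparisons share the diet F livers with the one above, so their likeness is not read as a result. The genes below were picked with their difference between diets F and A seen, so the place of either diet is not a result either.

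FAM20B averaged 7.81 ± 0.15 in diet F, 7.42 ± 0.10 in diet E, 7.40 ± 0.12 in diet H and 7.33 ± 0.24 in diet A (SD, n = 4 each). Diet F lay above diet E by 0.39 ± 0.14 and above diet H by 0.41 ± 0.14 (SE). FZD6 lay above diet E by 0.68 ± 0.26 and above diet H by 0.88 ± 0.26, so that diet F was the highest group for both genes. DNAJC12 averaged 5.96 ± 0.21 in diet F, 6.53 ± 0.57 in diet E, 6.31 ± 0.60 in diet H and 6.71 ± 0.31 in diet A, and diet F was the lowest group. FASN lay above diets E and H by 0.32 ± 0.36 and 0.32 ± 0.36, and CYP51A1 by 0.14 ± 0.20 and 0.35 ± 0.20.

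For other genes the diet A mean lay outside the means of diets F, E and H, with a wide spread of birds in some diets. MGST3 averaged 8.60 ± 0.23 in diet F, 8.55 ± 0.27 in diet E, 8.80 ± 0.75 in diet H and 8.02 ± 0.19 in diet A. LYG2 averaged 11.02 ± 0.35 in diet F, 10.98 ± 0.95 in diet E, 10.38 ± 0.92 in diet H and 11.82 ± 0.12 in diet A, the highest. NR0B2, DUSP1 and PAPSS2 differed between diets F and E by -0.11 ± 0.28, -0.13 ± 0.22 and -0.16 ± 0.22 and between diets F and H by -0.20 ± 0.28, -0.23 ± 0.22 and 0.05 ± 0.22. None of these differences passed the adjusted test in any of the 3 comparisons of diet F.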

How the data were processed

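Liver RNA of 16 birds was measured on 1-colour Affymetrix arrays after DNase treatment, amplification and labelling, per the labels' protocols. The deposited log2 values of the authors were used as given, 1 per feature and array, with 0 missing. Per the submitters' processing notes GCOS 1.1.1 was used. How background, summarization and normalization were handled, and on which build, is not given in the sources used here. Detection calls were not analysed here, so how far a signal lies above background is unknown. Precision is limited by the number of arrays.

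Replicates were numbered in accession order, and the numbers only name birds. Platform annotation gave 12300 features 1 symbol, 256 several and 8248 none, and the last 2 kinds named no gene. Entrez IDs of 11727 named features matched the RefSeq table of GRCg7b, which also gave the span of 11030 genes, and 0 symbols were updated. Where a gene had several features, the brightest on average was taken. Of all features, 1644 share identical values with another, 18 of them named.

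limma 3.58.1 under R 4.3.3 fitted 1 mean per diet over the 16 arrays, which left 12 residual degrees of freedom and gave 4.12 prior ones. Contrasts were tested two-sided with Benjamini-Hochberg adjustment over 20804 features. Errors of differences are standard errors and levels carry the SD of 4 birds. The procedure was tested on simulated data, with 3 false calls in all.

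The text names the 12 higher and 12 lower genes with the smallest p, the 8 with the largest difference, and in each list up to 3 anchor genes, up to 4 others by p and any gene without overlap. These rules left out genes under the dim level in both diets and placeholder symbols. Of 292 list genes these rules give, the text names 180, a choice made after their values were seen. CYP2AB3 was named for its overlap count although dim. The comparison and the 49 gene lists were chosen with earlier results of these data known. Lists are described by counts and medians with no set test. Alternatives covered normalization, filters, the samples fitted, gene span, title numbers and leaving out birds.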

Additional observations from a re-analysis of the deposited data

Results flagged for a closer look

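Single birds were checked in 524 groups of 4 birds, for the genes and lists named above and for array measures. In 29 the highest or lowest bird lay so far from the other 3 that its gap passed Dixon's 95% critical value, and chance alone flags about 1 in 20 groups. No explanation was weighed for any of them.

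In diet F, replicate 1 read 7.43 for CYP2C45, where the others read 10.89 to 11.53, 7.21 for EGR1 (8.81 to 8.96), 6.63 for RAB40B (6.98 to 6.995), 11.67 for GPI (11.35 to 11.39) and 9.77 for TNFAIP2 (9.35 to 9.38). Replicate 2 read 7.07 for GZMA (others 5.78 to 5.82), 11.02 for SOD1 (11.24 to 11.25), 7.79 for TPMT (8.27 to 8.30) and 7.26 for IL7R (6.22 to 6.38). Replicate 3 read 6.25 for SLC2A11L5 (others 6.14 to 6.16) and 8.25 for LPL (8.51 to 8.56), and replicate 4 read 4.47 for SPATA1 (4.88 to 4.91) and 11.09 for HMOX1 (10.79 to 10.84).

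In diet A, replicate 2 read 8.38 for CYP1A2 (others 9.27 to 9.33), 8.08 for HNF4A (9.08 to 9.17), 9.75 for MASP2 (9.10 to 9.17) and 9.78 for UGT8 (9.03 to 9.15). Replicate 1 read 10.69 for INSIG2 (others 10.11 to 10.21), 9.58 for PPARA (8.93 to 8.99) and 5.37 for SOX9 (5.62 to 5.64). Replicate 3 read 10.16 for SQLE (others 9.75 to 9.80), 6.39 for IL7R (7.29 to 7.44) and 5.07 for CIITA (5.68 to 5.76), and replicate 4 read 9.51 for PRDX3 (9.61 to 9.62). Diet A replicate 3 also had a mean correlation of 0.976 with the other arrays of the series, where the other diet A birds had 0.971 to 0.972.

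Among the list medians, diet F replicate 4 stood at 0.14 for antioxidant defence (others -0.0022 to 0.0079) and at 0.21 for macrophage and Kupffer cell markers (-0.10 to -0.08). Diet F replicate 3 stood at -0.18 for plasma protein genes (others -0.0036 to 0.0012) and replicate 1 at -0.18 for B and plasma cell markers (0.08 to 0.13).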

How the results depend on the processing

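No paired analysis was possible because the labels carry no replicate numbers, and the numbers used here only name birds. In each of the 20 alternative settings limma called 0 features, with the smallest adjusted p, 0.131, between birds with title numbers above 25. The setting without dim features held 16693 features and the main comparison 20804. Its count below is therefore on a smaller total and cannot be set directly against the main count. The 349 features at unadjusted p under 0.05 became 646 with array weights, 228 without dim features, 707 with only the 8 arrays fitted, 617 with the title number block as a covariate, 2864 within title numbers above 25 and 678 within those up to 25. Leaving out 1 bird gave 258 to 608, with 608 and 541 without diet F replicates 1 and 2. Features with every diet F bird above every diet A bird numbered 5924 (28.5%) above and 3515 (16.9%) up to title number 25, with 2 birds against 2. They numbered 1076 (5.17%) without diet F replicates 3 and 4, a setting chosen after seeing the data. With 1 bird left out they numbered 365 to 843 (1.75% to 4.05%). Features below numbered 4516 (21.7%), 3387 (16.3%), 1366 (6.57%) and 252 to 494 (1.21% to 2.37%) in these settings. Fewer birds must separate in each of them, so these shares cannot be set against the 1.18% and 0.663% of the full groups.

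Of the lists, the fatty acid synthesis median was -0.13 within title numbers above 25. Those of the clock, ribosomal proteins, respiratory chain and erythroid markers were -0.43, 0.27, 0.26 and 0.34 there, and ribosomal and erythroid medians were -0.044 and -0.20 within numbers up to 25. Without diet F replicates 3 and 4, the immediate early, clock and respiratory chain medians were 0.020, -0.012 and -0.061, and DDX60 differed by 0.145. The CYP2, CYP3 and CYP4 median ran from -0.18 to -0.0092 over the 8 omissions, nearest 0 without diet F replicate 3. Of the 31 genes chosen by p or size, 30 kept their sign in all settings, the exception being DDX60. Choosing genes by p or size in the same birds favours a kept sign, so this count is no check on them. The cause of these moves was not tested. Of 1000 list medians under alternatives, 49 moved by more than 1 SD of the birds under the other settings and 5 with 1 bird left out.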

Other observations

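The list medians of diet F can be set beside single birds of diets E and H, all relative to the diet A mean. Cholesterol synthesis stood at 0.55, -0.02, 0.64 and 0.01 in diet F, against 0.16, 0.11, 0.05 and 0.42 in diet E and 0.20, 0.18, 0.07 and 0.05 in diet H. Glycolysis stood at 0.07, 0.14, 0.20 and 0.22 in diet F, against 0.11, -0.07, 0.07 and 0.30 in diet E and 0.07, 0.09, 0.30 and 0.27 in diet H. Cytosolic ribosomal protein and clock medians were 0.56 and -0.82 in diet H replicate 3, and 0.65 and -0.85 in diet H replicate 4. High pancreas medians occurred in single livers of 2 diets, with 1.14 in diet F replicate 4 and 0.87 in diet H replicate 3, where AMY2A averaged 6.80 ± 1.495 in diet F, 6.32 ± 1.19 in diet H and 5.67 ± 0.78 in diet E.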
